A study of Mus musculus with 8 samples.

Results

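The signaling lymphocytic activation molecule (SLAM) family and the adaptors named with it were measured by RNA sequencing in naive CD4 T cells and in effector Th1, Th2 and Th17 cells of the mouse. The set was chosen by gene symbol and holds 9 genes of the 23284 symbols in the expression tables. It consists of 7 receptors, *Slamf1*, *Slamf6*, *Slamf7*, *Cd84*, *Ly9*, *Cd48* and *Cd244*, and of 2 adaptors, *Sh2d1a* and *Sh2d2a*. Of these, 8 passed the filter on low values and were tested together with all 11198 genes that passed it. *Cd244* did not pass, with a mean of 0.362 FPKM over the 8 libraries (fragments mapped to a gene, scaled by library depth and exon length, the unit of every level given here).

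Each of the 4 groups had 2 libraries, numbered 1 and 2 in the labels, and every level below is given in that order. The strain of all samples was DO11.10 Tg, a mouse with a transgenic T cell receptor that recognizes an ovalbumin peptide. The naive group was taken straight from the spleen as cells low in CD44 and high in CD62L. The effector groups were made from such naive cells by culture for 6 days with ovalbumin peptide and irradiated splenocytes that had been depleted of T cells. For Th1 cells, the culture held IL-12 (100 U/ml), anti-IL-4 antibody (1 µg/ml) and IL-2 (30 U/ml). For Th2 cells, it held IL-4 (100 U/ml), anti-IFN-γ antibody (10 µg/ml) and the same IL-2. For Th17 cells, it held IL-6, IL-1β and IL-23 (10 ng/ml each) with anti-IL-4 and anti-IFN-γ antibodies (10 µg/ml each). The effector groups are therefore *in vitro* products of 1 transgenic receptor, and they differ from the naive group in antigen stimulation, culture and cytokines together. Neither the labels nor the methods say whether the libraries of a group came from separate mice or cultures, so the p-values below measure the spread between these libraries only.

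The libraries held an estimated 14463466 to 21058286 fragments, with the lowest numbers in the naive libraries. Pearson's r of log2(FPKM + 1) over all 23284 genes was 0.983 to 0.986 between the libraries of a group (4 pairs) and 0.872 to 0.969 between libraries of different groups (24 pairs). These genes include those at 0, and 14317 to 15955 were above 0 in a library. The lineage genes were where the labels put them, with *Tbx21* at a mean of 47.9 FPKM in Th1, *Gata3* at 130.0 in Th2 and *Il17f* at 995.7 in Th17 cells. Several SLAM receptors are also carried by other blood cells, so the markers of those cells were summed in each library. The 5 T cell markers summed to 983 to 1645 FPKM. The 6 B cell markers summed to 6.95 to 8.95 in naive, 2.49 to 3.29 in Th1, 7.25 to 10.2 in Th2 and 12.8 to 13.9 in Th17 cells. The 5 macrophage and monocyte markers summed to 12.2 to 12.8, 7.94 to 8.73, 20.8 to 27.8 and 17.0 to 17.2, the 5 dendritic cell markers to 0.728 to 0.815, 1.22 to 1.36, 2.72 to 2.82 and 3.88 to 3.90, and the 2 plasma cell markers to 0.478 to 0.613, 0.314 to 0.330, 6.06 to 6.15 and 2.73 to 8.39 in the same order of groups. The 4 neutrophil markers summed to 0.173 to 1.21 in naive, 0.181 to 7.65 in Th1, 0.0425 to 6.52 in Th2 and 0.545 to 7.28 in Th17 cells. The 2 libraries of each effector group thus differed widely, mostly in *Elane* and *Mpo*. The 2 CD8 T cell markers summed to 54.5 to 93.4 in naive cells and to 8.94 to 13.0 in the effector libraries, nearly all of it *Cd8b1*, while *Cd8a* had a mean of 2.36 in naive cells. The part of these other cell types in the levels below was not tested, and in bulk RNA fewer cells of a type cannot be told apart from less RNA per cell.

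As background, SLAM receptors are immunoglobulin-superfamily proteins on blood cells. Most of them bind the same receptor on a neighboring cell, whereas CD48 and CD244 bind each other. Tyrosine motifs in the tails of most members recruit SAP, the SH2-domain adaptor encoded by *Sh2d1a*, which brings in the kinase FYN, and without SAP the same motifs can engage phosphatases. In CD4 T cells this pathway is known for sustained contact with B cells and for IL-4 production, and loss of SAP in humans causes X-linked lymphoproliferative disease. *Sh2d2a* encodes TSAd, a T cell adaptor that binds LCK. It shares the SH2 domain with SAP but is not a SAP family protein, so the name SAP adaptor covers *Sh2d1a* alone.

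The 7 receptor genes lay side by side on mouse chromosome 1 (mm10, positions from the expression tables), from the start of *Cd244* at 171559193 to the end of *Slamf6* at 171943868. This stretch spanned 384.7 kb and contained no other gene of the tables. In chromosomal order they were *Cd244* (chr1:171559193-171585316, + strand), *Ly9* (chr1:171588613-171607360, − strand), *Slamf7* (chr1:171632403-171653037, − strand), *Cd48* (chr1:171682055-171705257, + strand), *Slamf1* (chr1:171767132-171801184, + strand), *Cd84* (chr1:171839697-171890718, + strand) and *Slamf6* (chr1:171917537-171943868, + strand). Between neighbors lay 3.3 to 61.9 kb. The adaptor genes were elsewhere, *Sh2d1a* at chrX:42502608-42522075 and *Sh2d2a* at chr3:87846755-87855722, both on the + strand. The mm10 genome is that of C57BL/6J, whereas the study transferred DO11.10 Tg cells into BALB/c hosts, and BALB/c mice are known to carry another haplotype of the SLAM cluster. The effect of this on the alignments was not tested.

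Promoter sequences (250 bases before to 50 after the start, RefSeq, GRCm38.p6) were matched for 6 of the 9 genes, and *Ly9*, *Sh2d1a* and *Sh2d2a* were not matched. Those of *Slamf1* and *Slamf7*, higher in every effector subset than in naive cells, and of *Slamf6* and *Cd84*, lower in every one, are printed 5′ to 3′ on the strand of the gene, with matches to the motifs searched in capitals. They lie at chr1:171766882-171767181 (*Slamf1*, + strand), chr1:171648950-171649249 (*Slamf7*, − strand), chr1:171917212-171917511 (*Slamf6*, + strand) and chr1:171839447-171839746 (*Cd84*, + strand). The RefSeq start of *Slamf7* lay 4038 bases inside the gene as the expression tables place it, and that of *Slamf6* lay 75 bases before the start of that gene there, so neither window holds the start used in the tables.
Slamf1: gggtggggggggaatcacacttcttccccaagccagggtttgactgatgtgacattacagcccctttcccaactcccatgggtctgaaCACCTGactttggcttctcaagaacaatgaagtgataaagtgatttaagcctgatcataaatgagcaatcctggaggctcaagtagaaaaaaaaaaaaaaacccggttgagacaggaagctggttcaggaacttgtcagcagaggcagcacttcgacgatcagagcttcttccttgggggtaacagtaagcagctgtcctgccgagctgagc
Slamf7: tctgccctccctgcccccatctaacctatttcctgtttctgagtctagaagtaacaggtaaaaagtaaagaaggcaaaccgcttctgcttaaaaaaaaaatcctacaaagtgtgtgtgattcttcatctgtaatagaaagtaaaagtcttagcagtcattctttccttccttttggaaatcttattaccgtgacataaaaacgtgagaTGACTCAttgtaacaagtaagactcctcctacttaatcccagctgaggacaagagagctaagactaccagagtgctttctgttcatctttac
Slamf6: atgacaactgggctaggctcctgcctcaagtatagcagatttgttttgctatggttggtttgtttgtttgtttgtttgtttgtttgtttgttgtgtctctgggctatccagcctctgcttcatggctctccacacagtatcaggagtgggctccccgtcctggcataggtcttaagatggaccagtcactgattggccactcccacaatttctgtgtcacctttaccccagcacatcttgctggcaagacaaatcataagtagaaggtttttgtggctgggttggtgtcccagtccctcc
Cd84: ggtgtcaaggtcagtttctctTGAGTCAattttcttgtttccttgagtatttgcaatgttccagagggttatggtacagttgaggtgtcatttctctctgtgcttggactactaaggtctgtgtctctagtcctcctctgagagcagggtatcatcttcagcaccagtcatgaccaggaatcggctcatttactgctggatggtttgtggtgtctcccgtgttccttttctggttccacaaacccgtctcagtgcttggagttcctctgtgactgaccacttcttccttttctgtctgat

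The motifs searched, on both strands, were those of T-box factors (AGGTGTGA), GATA factors (AGATAA), STAT factors (TTCNNNGAA), AP-1 (TGANTCA), TCF/LEF (CTTTGA), ETS factors (CCGGAA), E2A (CAGGTG) and the TATA box (TATAAA). No matches overlapped in the promoters printed. The AP-1 letters were in 3 of the 6 promoters, those of *Slamf7*, *Cd84* and *Cd244*, and in 7.81% of all 32851 promoters of this length. The single match of *Slamf7*, 42 bases before the start, was to AP-1. *Cd84* likewise had a single match, to AP-1, 229 bases before the start. *Slamf1* held the E2A letters 162 bases before the start, as did 20.2% of all promoters, and *Slamf6* held none of the motifs. The T-box letters (1.28% of all promoters), GATA letters (11.2%), STAT letters (8.30%) and the TATA box (13.6%) were in none of the 6. *Cd48* held TCF/LEF letters (16.0% of all promoters) and ETS letters (14.9%). Its RefSeq start lay 63 bases before the start in the expression tables, so this window does not hold the latter either. The GC content of the 4 printed promoters was 49.0% (*Slamf1*), 48.3% (*Slamf6*), 46.7% (*Cd84*) and 39.0% (*Slamf7*), beside a median of 52.7% over all promoters. A match of letters is a description of the sequence, and binding was not measured.

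**Figure D1:**
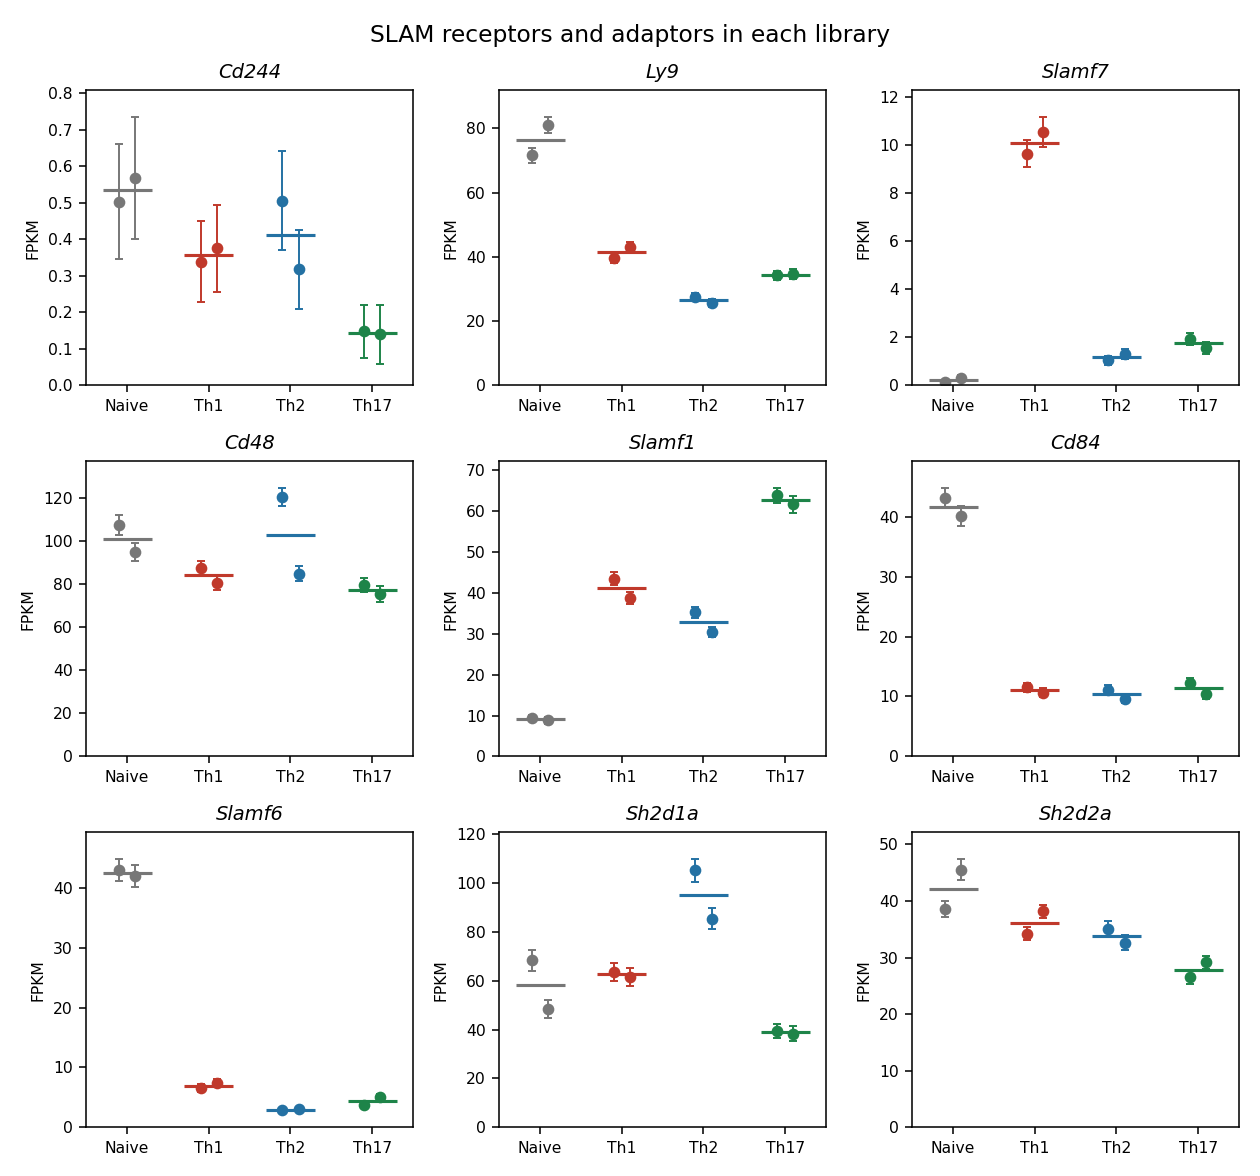
Level of each of the 9 genes (vertical axes, FPKM, linear and starting at 0, with a scale of its own for each gene) in the naive, Th1, Th2 and Th17 libraries. Points are single libraries with the confidence interval that the authors' quantification gave, and horizontal lines are means of 2 libraries; *Slamf1* and *Slamf7* are lowest in naive cells, and *Slamf6*, *Cd84* and *Ly9* are highest there.

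Against naive cells, the receptors moved in opposite directions. *Slamf1* and *Slamf7* were higher in all 3 effector subsets, *Slamf6*, *Cd84* and *Ly9* were lower in all 3, and *Cd48* passed the test in none. Of the 8 members tested, 2 were higher and 3 lower in Th1 cells, where 33.8% of all tested genes were higher and 33.5% lower (limma, adjusted p under 0.05). In Th2 cells 3 were higher and 3 lower (31.8% and 38.7% of all genes), while Th17 cells had 2 higher and 5 lower (37.5% and 29.8%). With the replicate number as a block, 4 were lower in Th2 and 6 in Th17 cells. With quantile normalization, 2 were higher and 5 lower in Th1, 2 higher and 3 lower in Th2, and 1 higher and 6 lower in Th17 cells. The shares over all genes, here and below, come from the fit without the block or another scaling. They were not computed under the alternatives, so these counts have no share beside them. Differences in all 3 subsets in 1 direction were common among all genes, with 24.8% higher and 23.8% lower in each. The members' median difference on the log2(FPKM + 1) scale was -0.24 for Th1, -0.15 for Th2 and -0.56 for Th17, beside -0.01, -0.11 and 0.08 over all genes tested. With quantile normalization, the median over all genes tested was -0.13, -0.13 and -0.12. The 3 comparisons share the 2 naive libraries. All differences below are on the log2(FPKM + 1) scale, which understates the fold change of genes near or under 1 FPKM.

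*Slamf1* encodes SLAM itself (CD150), a self-binding receptor with SAP-binding motifs. It was at 9.42 and 8.83 FPKM in naive cells, 43.5 and 38.8 in Th1 cells, 35.3 and 30.5 in Th2 cells and 63.9 and 61.7 in Th17 cells. No effector library reached down to the naive level, and the groups did not overlap at any step of the order Th17, Th1, Th2, naive. The mean in Th17 cells, 62.8 ± 1.57 FPKM (SD, n = 2), was 6.89 times the naive mean of 9.12 ± 0.412 (SD, n = 2). The differences from naive cells were 2.06 ± 0.11 (SE), 1.74 and 2.66 for Th1, Th2 and Th17 cells, with adjusted p-values of 5.34e-06, 9.69e-06 and 1.45e-06 (limma). These 3 calls held under every alternative setting that was run.

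*Slamf7* (CRACC, also CD319), a self-binding receptor well known from natural killer and plasma cells, was barely listed in naive cells at 0.139 and 0.302 FPKM, an estimated 12 and 26 fragments. It was at 9.65 and 10.6 FPKM in Th1, 1.05 and 1.29 in Th2 cells and 1.93 and 1.56 in Th17 cells. The Th1 libraries stood well above all others, at an estimated 1120 and 1164 fragments, and the other groups did not overlap each other either. The Th1 mean of 10.1 ± 0.639 FPKM (SD, n = 2) was 45.8 times the naive mean of 0.221 ± 0.116, a ratio that rests on the few naive fragments. The difference in Th1 was 3.19 ± 0.13 (SE; adjusted p = 1.58e-06, limma), and with a pseudocount of 0.1 it was 5.04. In Th2 and Th17 cells the differences were 0.83 (adjusted p = 0.000956) and 1.17 (adjusted p = 0.000184), or 2.03 and 2.57 with a pseudocount of 0.1. Quantile normalization ended both of these calls, with differences of 0.07 (adjusted p = 0.641) and 0.14 (adjusted p = 0.356).

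The markers of the cells best known for *Slamf7* were present at levels that differed between groups. The 4 natural killer cell markers summed to 0.672 to 0.890 FPKM in naive, 1.46 to 1.64 in Th1, 0.114 to 0.156 in Th2 and 0.451 to 0.681 in Th17 libraries. This sum was highest in Th1 cells, as *Slamf7* was, and its part in the *Slamf7* level was not tested. The defining gene *Ncr1* was listed at 0 in all 6 effector libraries, whereas *Eomes* (0.945) and *Klrb1c* (0.463) made up most of the sum in Th1 cells. The plasma cell sum was low in Th1 cells (0.314 to 0.330). It reached 6.06 to 6.15 FPKM in Th2 and 2.73 to 8.39 in Th17 libraries, above the level of *Slamf7* there. In Th2 cells nearly all of it was *Sdc1* (mean 5.86), while *Igj* (0.243) was below its naive mean (0.507). In Th17 cells *Igj* (3.89 ± 3.83, SD, n = 2) differed widely between the libraries, and *Sdc1* was at 1.67. The part of this sum in the higher *Slamf7* of these 2 subsets was not tested either. Of the exon bases of *Slamf7*, 9.24% overlapped a gene on the opposite strand in GENCODE M21, *Gm37787*, which the tables do not list. How reads there were assigned is unsure, since the sources differ on whether the library kit kept the strand.

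*Slamf6* (Ly108), a self-binding receptor expressed by many T and B cells, showed the opposite pattern. It was at 43.0 and 42.0 FPKM in naive cells, 6.55 and 7.39 in Th1 cells, 2.84 and 2.99 in Th2 cells and 3.74 and 5.03 in Th17 cells. The naive libraries lay far above all effector libraries, and no groups overlapped in the order naive, Th1, Th17, Th2. The naive mean of 42.5 ± 0.704 (SD, n = 2) was 6.09 times the Th1, 14.6 times the Th2 and 9.68 times the Th17 mean. The differences from naive cells were -2.45 ± 0.13 (SE), -3.47 and -3.02, with adjusted p-values of 5.61e-06, 9.22e-07 and 1.89e-06 (limma).

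*Cd84* (SLAMF5), a self-binding receptor that takes part in T cell and B cell contact, was at 43.2 and 40.1 FPKM in naive cells. The effector libraries were all between 9.54 and 12.3, with 11.5 and 10.6 in Th1 cells, 11.2 and 9.54 in Th2 cells and 12.3 and 10.4 in Th17 cells. The effector groups overlapped one another and none reached the naive level. The naive mean was 3.76, 4.02 and 3.67 times the mean of Th1, Th2 and Th17 cells. The corresponding differences were -1.82 ± 0.12 (SE), -1.91 and -1.79 (adjusted p = 1.45e-05, 9.58e-06 and 1.39e-05, limma).

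*Ly9* (CD229, SLAMF3), a self-binding receptor of T and B cells, was at 71.7 and 81.0 FPKM in naive cells, 39.6 and 43.1 in Th1 cells, 27.5 and 25.6 in Th2 cells and 34.2 and 34.7 in Th17 cells. The groups did not overlap, and the order was naive, Th1, Th17, Th2. Its decrease was the smallest of the 3 receptors in each subset, with the naive mean 1.85, 2.88 and 2.22 times that of Th1, Th2 and Th17 cells. The differences were -0.87 ± 0.10 (SE), -1.49 and -1.12 (adjusted p = 0.000252, 1.50e-05 and 6.44e-05, limma). The decreases of *Slamf6*, *Cd84* and *Ly9* in all 3 subsets held under every alternative setting that was run. The CD8 T cell marker sum given above was also higher in naive than in effector libraries, and its part in these decreases was not tested.

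*Cd48*, which encodes the GPI-anchored ligand of CD244 and CD2, was abundant in every library. It was at 107.7 and 95.0 FPKM in naive cells, 87.6 and 80.7 in Th1 cells, 120.8 and 84.9 in Th2 cells and 79.5 and 75.4 in Th17 cells. The Th2 libraries differed from each other by more than most groups did and spanned the naive values. The highest group mean, 102.8 ± 25.4 FPKM in Th2 (SD, n = 2), was 1.33 times the lowest, 77.5 ± 2.92 in Th17. The difference from naive cells was -0.26 in Th1 (95% interval -0.67 to 0.14, adjusted p = 0.209), 0.00 in Th2 (-0.40 to 0.41, adjusted p = 0.996) and -0.38 in Th17 (-0.79 to 0.02, adjusted p = 0.0860, limma). With the replicate block, the Th17 difference passed (adjusted p = 0.0265), as it did with quantile normalization (-0.60, adjusted p = 0.0122), equal FPKM totals (-0.48, adjusted p = 0.0170) and in 6 of 17 alternative settings in all. The Th1 difference passed with quantile normalization (-0.51, adjusted p = 0.0251) and equal totals (-0.38, adjusted p = 0.0426).

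*Cd244*, the receptor of CD48 best known from natural killer and CD8 T cells, was listed at low values in every library. It was at 0.503 and 0.568 FPKM in naive cells, 0.338 and 0.375 in Th1 cells, 0.506 and 0.318 in Th2 cells and 0.148 and 0.140 in Th17 cells, an estimated 12 to 55 fragments per library. The Th17 libraries were the lowest and the naive mean was 3.72 times theirs, whereas Th2 overlapped with both naive and Th1 cells. In a fit with no filter, the difference of Th17 from naive cells was -0.42 (adjusted p = 0.00269, limma), that of Th1 was -0.18 (adjusted p = 0.0693) and that of Th2 was -0.12 (adjusted p = 0.172).

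Of the adaptors, *Sh2d1a* (SAP) moved in opposite directions in Th2 and Th17 cells. It was at 68.3 and 48.4 FPKM in naive cells, 63.5 and 61.6 in Th1 cells, 105.0 and 85.2 in Th2 cells and 39.5 and 38.4 in Th17 cells. The Th2 libraries were the highest and the Th17 libraries the lowest, and the Th1 values lay within the wide range of the naive libraries. The mean in Th2 was 1.63 times the naive mean (difference 0.71 ± 0.17 (SE), adjusted p = 0.00896) and the naive mean was 1.50 times that of Th17 (-0.55, adjusted p = 0.0267, limma). In Th1 cells the difference was 0.12 (95% interval -0.30 to 0.53, adjusted p = 0.571). The Th17 call was lost without naive replicate 1 (-0.31, adjusted p = 0.12), without Th17 replicate 1 (adjusted p = 0.0830) or replicate 2 (adjusted p = 0.102) and in a fit of the 2 groups alone (adjusted p = 0.0588). The Th2 call was lost without Th2 replicate 1 (0.56, adjusted p = 0.0597), and the difference was 0.46 without naive replicate 2. In GENCODE M21, 26.61% of the exon bases of *Sh2d1a* overlapped *Tenm1* on the opposite strand, which the tables list as *Odz1* at no more than 0.0119 FPKM.

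*Sh2d2a* (TSAd) was at 38.6 and 45.5 FPKM in naive cells, 34.2 and 38.1 in Th1 cells, 35.1 and 32.6 in Th2 cells and 26.5 and 29.2 in Th17 cells. The Th17 libraries were below all others, and Th1 and Th2 overlapped. The naive mean of 42.1 ± 4.92 (SD, n = 2) was 1.51 times that of Th17, a difference of -0.58 ± 0.12 (SE; adjusted p = 0.00399, limma). The difference in Th2 was -0.30 (95% interval -0.58 to -0.02, adjusted p = 0.0539), which passed with the replicate block (adjusted p = 0.0288). It was -0.15 with median scaling (adjusted p = 0.223), -0.42 without naive replicate 1 (adjusted p = 0.0302) and -0.18 without naive replicate 2 (adjusted p = 0.247). In Th1 it was -0.21 (-0.49 to 0.07, adjusted p = 0.153), and -0.30 with quantile normalization (adjusted p = 0.0365).

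**Figure D2:**
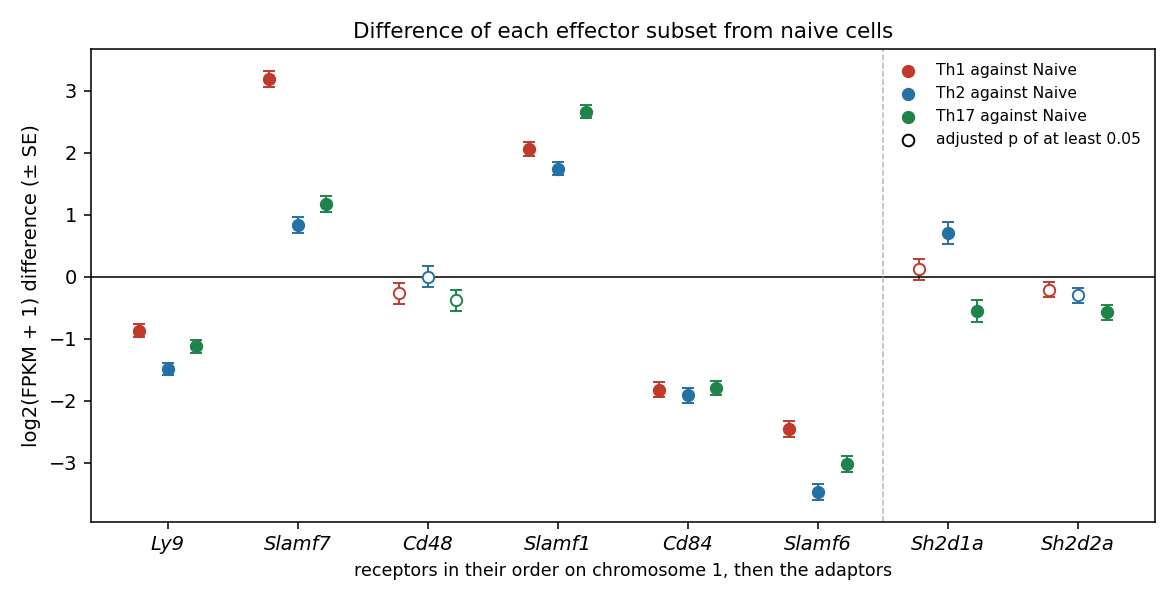
Difference of each of the 8 tested genes (along the horizontal axis) from naive cells in Th1, Th2 and Th17 cells, with standard errors. The vertical axis is the difference of log2(FPKM + 1), where 0 means no difference. Filled points have an adjusted p under 0.05 (limma) and open points do not. *Slamf1* and *Slamf7* lie above 0 and *Slamf6*, *Cd84* and *Ly9* below 0 in all 3 subsets.

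Between the effector subsets, *Slamf7* was highest in Th1, *Slamf1* in Th17 and *Sh2d1a* in Th2 cells. Of the 8 members, 3 were higher and 1 lower in Th1 than in Th2 cells, where 27.4% of all tested genes were higher and 16.9% lower. In Th17 against Th2 cells 3 were again higher and 1 lower (31.7% and 12.0% of all genes), and in Th1 against Th17 cells likewise 3 were higher and 1 lower (9.17% and 16.0%). With the replicate block, 4 were higher in Th1 than in Th2, 2 were lower in Th17 than in Th2 and 4 were higher in Th1 than in Th17 cells. The median difference of the members was 0.20, 0.23 and 0.31 in these 3 comparisons, beside 0.11, 0.18 and -0.08 over all genes tested. Under median scaling or quantile normalization, only 1 member was higher and 3 were lower in Th17 than in Th2 cells.

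The Th1 mean of *Slamf7* was 8.62 times that of Th2 and 5.79 times that of Th17 cells. The differences were 2.35 ± 0.13 (SE, adjusted p = 2.31e-05) and 2.02 (adjusted p = 8.35e-05, limma), and both calls held under every alternative setting that was run. Th17 and Th2 cells differed by 0.34 (95% interval 0.03 to 0.64, adjusted p = 0.0727).

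*Slamf1* was higher in Th17 than in Th2 cells by 0.92 ± 0.11 (SE, adjusted p = 0.000920, limma), with means 1.91 times apart, and this call held under every alternative setting. It was also higher in Th17 than in Th1 cells, with a Th1 minus Th17 difference of -0.60 (adjusted p = 0.00743), or -0.52 (adjusted p = 0.0565) without Th1 replicate 2. Between Th1 and Th2 cells the difference was 0.32 (95% interval 0.06 to 0.57, adjusted p = 0.0503), which passed with the replicate block (adjusted p = 0.0132) and without Th2 replicate 1 (0.42, adjusted p = 0.0382). It was 0.19 with median scaling (adjusted p = 0.213) or quantile normalization (adjusted p = 0.218) and 0.21 without Th2 replicate 2 (adjusted p = 0.223).

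*Slamf6* was higher in Th1 than in Th2 cells by 1.02 ± 0.13 (SE, adjusted p = 0.000981, limma), means 2.39 times apart. The steps next to Th17 were smaller, 0.57 from Th17 to Th1 (adjusted p = 0.0188) and 0.45 from Th2 to Th17 (adjusted p = 0.0292). The former call was lost without Th1 replicate 1 (adjusted p = 0.0546), Th1 replicate 2 (adjusted p = 0.114) or Th17 replicate 1 (adjusted p = 0.0882), with equal FPKM totals (adjusted p = 0.0791) and in a fit of the 2 groups alone (adjusted p = 0.0718). The latter was lost without Th2 replicate 1 (adjusted p = 0.110), Th2 replicate 2 (adjusted p = 0.0959) or Th17 replicate 2 (0.28, adjusted p = 0.153), under median scaling (0.28), quantile normalization (0.26) and equal totals (0.40), and in a fit of the 2 groups alone (adjusted p = 0.0704). *Ly9* had the same order, with Th1 above Th2 by 0.62 ± 0.10 (SE, adjusted p = 0.00295). Its Th17 level was above that of Th2 by 0.36 (adjusted p = 0.0252), a call lost under the same 3 scalings (0.15, 0.19 and 0.31) and without Th2 replicate 2 (adjusted p = 0.115), Th17 replicate 1 (adjusted p = 0.0787) or Th17 replicate 2 (adjusted p = 0.102), and Th1 and Th17 differed by 0.26 (95% interval 0.02 to 0.49, adjusted p = 0.115; 0.34 and adjusted p = 0.0336 with median scaling). The calls between Th1 and Th2 for both receptors held under every alternative setting.

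*Cd84* did not differ detectably among the subsets. The differences were 0.09 between Th1 and Th2 (95% interval -0.19 to 0.37, adjusted p = 0.563), 0.12 between Th17 and Th2 (-0.16 to 0.40, adjusted p = 0.433) and -0.03 between Th1 and Th17 (-0.31 to 0.25, adjusted p = 0.892, limma). For *Cd48* they were -0.27 (-0.67 to 0.14, adjusted p = 0.250), -0.38 (-0.79 to 0.02, adjusted p = 0.112) and 0.12 (-0.29 to 0.52, adjusted p = 0.683). The second of these passed with the replicate block (adjusted p = 0.0362), with median scaling (-0.60, adjusted p = 0.0331), quantile normalization (-0.51, adjusted p = 0.0391) and equal totals (-0.44, adjusted p = 0.0466), and without Th2 replicate 2 (-0.63, adjusted p = 0.0212), and the first passed without that library as well (-0.52, adjusted p = 0.0355). For *Cd244*, in the fit with no filter, the Th17 minus Th2 difference was -0.30 (adjusted p = 0.0192), Th1 was above Th17 by 0.25 (adjusted p = 0.0496) and Th1 and Th2 differed by -0.05 (adjusted p = 0.614).

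*Sh2d1a* separated Th17 from Th2 cells, with means 2.44 times apart and a difference of -1.26 ± 0.17 (SE, adjusted p = 0.00181, limma), which held under every alternative setting. Th1 lay between them, with a difference of -0.59 from Th2 (adjusted p = 0.0318) and of 0.67 from Th17 (adjusted p = 0.0318). Neither of these last calls held when single libraries were left out. Against Th2 it was lost without either Th1 library, Th2 replicate 1 or either Th17 library (adjusted p up to 0.150) and with no filter on low values (adjusted p = 0.0539), and against Th17 without either Th1 or either Th17 library (adjusted p up to 0.138). For *Sh2d2a*, Th1 and Th2 differed by 0.09 (95% interval -0.19 to 0.37, adjusted p = 0.565), Th17 and Th2 by -0.27 (-0.55 to 0.00, adjusted p = 0.101) and Th1 and Th17 by 0.37 (0.09 to 0.64, adjusted p = 0.0631). The last of these passed with the replicate block (adjusted p = 0.0326), median scaling (0.45, adjusted p = 0.0208) and quantile normalization (0.39, adjusted p = 0.0340). The Th17 and Th2 difference passed with median scaling (-0.49, adjusted p = 0.0111) and quantile normalization (-0.43, adjusted p = 0.0178).

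**Figure D3:**
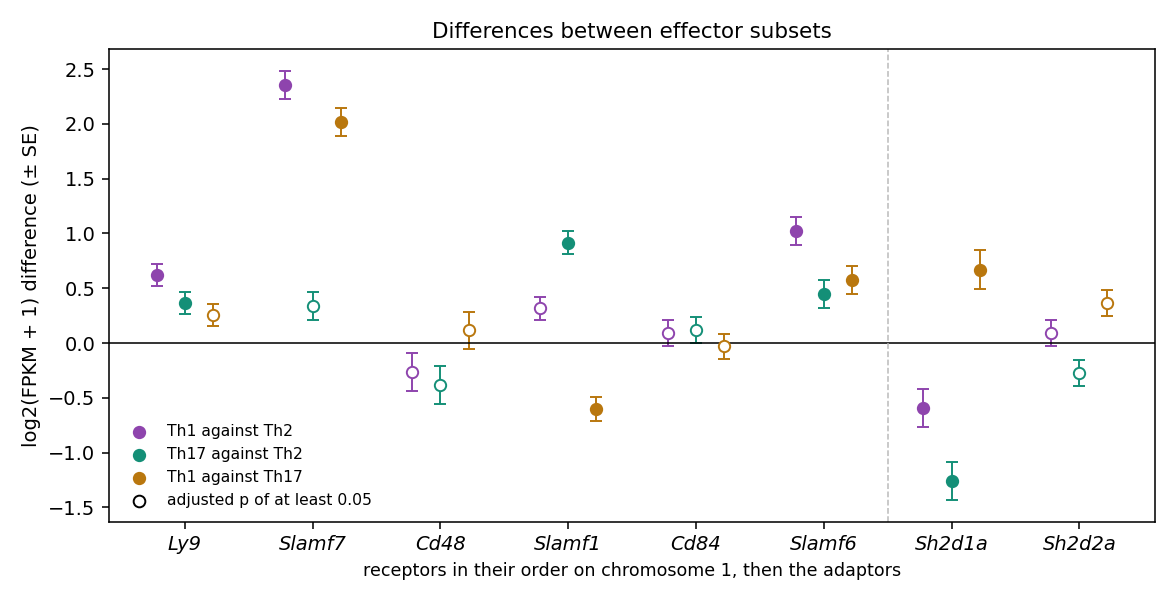
Difference of each of the 8 tested genes (along the horizontal axis) for Th1 minus Th2, Th17 minus Th2 and Th1 minus Th17, with standard errors. The vertical axis is the difference of log2(FPKM + 1), where 0 means no difference. Filled points have an adjusted p under 0.05 and open points do not; the differences farthest from 0 are those of *Slamf7* in Th1 against the other subsets (2.35 and 2.02) and of *Sh2d1a* in Th17 against Th2 (-1.26).

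The make-up of the receptor set thus differed between naive and effector cells. FPKM is scaled by gene length, so the 7 receptor levels of a library can be summed. The sum was 275.5 and 267.8 FPKM in naive cells, 198.7 and 191.6 in Th1 cells, 199.1 and 155.1 in Th2 cells and 195.8 and 188.9 in Th17 cells. Both naive libraries were above every effector library, and the effector groups overlapped. The FPKM totals of all genes also differed between libraries, from 417787 (naive replicate 2) to 513295 (Th1 replicate 1). In Th2 cells they were 503803 and 441087. The sums were not scaled to these totals. *Cd48* held the largest share in every group, with 37.3% ± 2.55 for naive, 43.1% ± 1.36 for Th1, 57.7% ± 4.20 for Th2 and 40.3% ± 0.502 for Th17 cells (SD, n = 2). *Slamf1* made up 3.36% of the sum in naive cells, against 21.1% (Th1), 18.7% (Th2) and 32.7% (Th17). *Slamf6* and *Cd84* made up 15.6% and 15.3% in naive cells, and between 1.68% and 5.90% in the effector groups. *Ly9* held 28.1% in naive cells, against 21.2% (Th1), 15.2% (Th2) and 17.9% (Th17). *Slamf7* reached 5.18% in Th1 cells and was at 0.906% or less in the other groups. These shares describe the same values as above and were not tested.

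**Figure D4:**
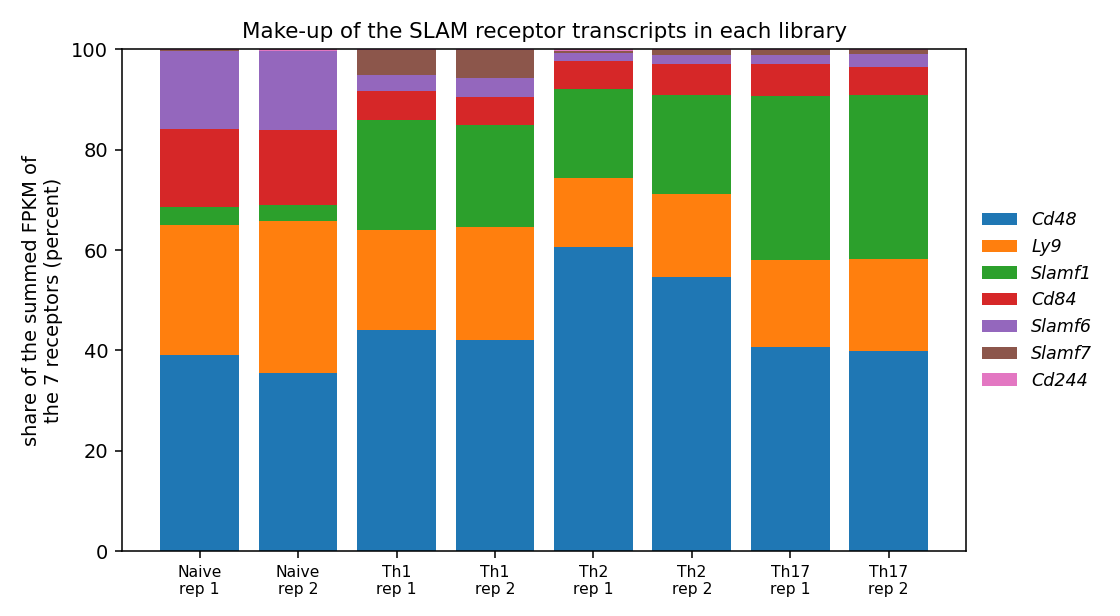
Share of each receptor gene in the summed FPKM of the 7 SLAM receptors (vertical axis, percent, from 0), as 1 stacked bar for each of the 8 libraries. *Cd48* is the largest part of every bar. *Slamf1* is 3.42% and 3.30% of the naive bars and 32.7% of each Th17 bar.

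Of 24 further genes of the pathway (other SLAM and SAP family genes, *Cd2*, and signaling partners of SAP and TSAd), 20 passed the filter. Against naive cells 2 were higher and 11 lower in Th1, 2 higher and 15 lower in Th2, and 2 higher and 11 lower in Th17 cells. Over all genes tested, the shares higher and lower in these comparisons were 33.8% and 33.5%, 31.8% and 38.7%, and 37.5% and 29.8%. The median differences of the 20 genes were -0.45, -0.61 and -0.47, beside -0.01, -0.11 and 0.08 over all genes. With the replicate block, the counts were 2 and 13, 3 and 16, and 2 and 14. Without the block, the 2 that were higher were the same genes each time. *Cd2*, whose product is another receptor of CD48, was at 259 and 258 FPKM in naive and at 355 to 497 in effector libraries (differences of 0.50, 0.53 and 0.94, adjusted p = 0.00318, 0.00235 and 0.000140, limma). *Dok1*, an inhibitory docking protein, was higher by 0.89, 0.44 and 1.09.

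*Fyn*, the kinase that SAP recruits, was at 90.9 and 95.8 FPKM in naive cells, 59.4 and 71.4 in Th1 cells, 13.2 and 16.2 in Th2 cells and 26.8 and 32.9 in Th17 cells. The 4 groups did not overlap, and Th2, where *Sh2d1a* was highest, had the lowest *Fyn*. The differences from naive cells were -0.51 in Th1 (adjusted p = 0.0206), -2.59 in Th2 (adjusted p = 7.66e-06) and -1.62 in Th17 (adjusted p = 8.33e-05, limma). The authors' quantification gave the status FAIL to *Fyn* in naive replicate 2, and without that library the differences were -0.48 (adjusted p = 0.0842), -2.56 (adjusted p = 0.000158) and -1.58 (adjusted p = 0.00110), so the Th1 call was lost. *Prkcq*, the protein kinase C theta gene of the same signaling branch, differed from naive cells by -1.18, -2.45 and -1.62. The TSAd partner *Lck* (-0.70, -1.33 and -1.01) and the scaffold gene *Lat* (-1.40, -2.44 and -1.83) were also lower in each subset. *Vav1*, counted above as lower in Th1 and Th2 cells, likewise had the status FAIL in part of the libraries. The effect of this on its calls was not tested. Between subsets, 9 of the 20 were higher and 0 lower in Th1 than in Th2, 10 higher and 0 lower in Th17 than in Th2, and 4 higher and 1 lower in Th1 than in Th17 cells, by the same limma test. The shares over all genes were 27.4% and 16.9%, 31.7% and 12.0%, and 9.17% and 16.0%. With the replicate block, the counts were 12 and 0, 13 and 0, and 7 and 1. The 4 genes that did not pass the filter were *Slamf8* (at most 0.279 FPKM), *Slamf9* (at most 0.308), *Sh2d1b1* (at most 0.178, listed at 0 in all 6 effector libraries) and *Sh2d1b2* (listed at 0 in all 8 libraries).

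For each member the 2 tested genes with the most similar pattern were taken by Pearson's r of log2(FPKM + 1) over the 8 libraries, as a description of points that share 4 groups. For *Slamf1* these were *Irak1bp1* and *Pde4c* (both r = 0.998), for *Slamf6* *Tbc1d4* (0.999) and *Fam65b* (0.998), for *Slamf7* *Hopx* (0.996) and *Endou* (0.993), for *Cd84* *BC051226* (0.998) and *Zfp35* (0.997) and for *Ly9* *Tor1aip1* and *Gbp9* (both 0.998). The likeness was looser for *Sh2d2a* with *Fmnl3* (0.985) and *Gtpbp2* (0.980), *Sh2d1a* with *Cln3* (0.964) and *Sumo3* (0.934) and *Cd48* with *Tmem179b* (0.895) and *Zpbp2* (0.893). No member was among the closest genes of another member.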

How the data were processed

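Poly(A) RNA libraries of naive CD4 T cells and effector Th1, Th2 and Th17 cells were analysed, with 2 libraries per group, grouped by the sample labels. The authors aligned reads of 50 bases to mm10 with Bowtie (version 0.12.8) and TopHat (1.3.2) and deposited FPKM per gene from Cufflinks (2.0.2), per the submitters' processing notes. The gene annotation is not given in the sources used here. The labels name a stranded library kit and the methods an unstranded one.

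Rows with the same symbol were summed. The values were tested as log2(FPKM + 1), a pseudocount of 1, for genes with a mean of at least 1 FPKM over the 8 libraries, in one model of the 4 group means with limma (version 3.58.1, R 4.3.3; lmFit and eBayes with a trend). The tests were two-sided, with Benjamini-Hochberg adjustment over all 11198 genes tested and a threshold of 0.05. Fragment numbers per gene and library were estimated from the deposited confidence intervals and cover counting error only.

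The members, the pathway and marker lists and the rule for the genes named were chosen with earlier results of these data known. That rule takes the 9 members, the listed pathway genes that illustrate a count, and the 2 tested genes most similar to each member. *Fyn* and the other pathway genes with values were picked from the list as examples. Some listed genes are counted but not named here.

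Same-numbered libraries of different groups deviated together from their group means (r = 0.138 to 0.294 over 6 pairs of groups), so the replicate number of the labels was used as a block in an alternative fit. Overlaps with other genes were read from GENCODE M21 (GRCm38), where *Cd244* is *Cd244a*, and promoters from RefSeq (GRCm38.p6). Words of 50 bases shared with another gene on the same strand made up at most 2.23% of any member's transcripts. With either strand counted, the share was 25.58% for *Sh2d1a*, 7.14% for *Slamf7* and at most 2.38% for any other member. Python 3.11.15 (numpy 2.4.6, pandas 2.3.3) was used for the tables. As alternatives, a mean of at least 5 FPKM or no filter, a pseudocount of 0.1, median scaling, quantile normalization, a fit of the 2 groups alone, no trend, the replicate block and each library left out in turn were tried. Scaling to equal FPKM totals, and *Fyn* without naive replicate 2, were added after seeing the data.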

Additional observations from a re-analysis of the deposited data

Results flagged for a closer look

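For 5 of the 8 members tested, the difference from naive cells was not of the same size in 2 effector subsets. This was judged by a test between the subsets themselves (limma, log2(FPKM + 1), 2 libraries per group). Such differences were common in the whole series. Th1 cells exceeded Th2 cells in 27.4% of the 11198 genes and fell below them in 16.9%. For Th17 against Th2 cells these shares were 31.7% and 12.0%. Each gene is given with the largest of its differences between subsets. *Slamf7* was higher in Th1 than in Th2 cells by 2.35. *Slamf6* was higher in Th1 than in Th2 cells by 1.02. *Slamf1* was higher in Th17 than in Th2 cells by 0.92. *Ly9* was higher in Th1 than in Th2 cells by 0.62. *Sh2d1a* differed by -1.26 between Th17 and Th2 cells, being above the naive level in Th2 and below it in Th17 cells.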

How the results depend on the processing

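Of 426 results recomputed under the alternatives other than leaving out a library, 383 kept their direction and side of the threshold, and of 384 with a library left out, 349 did. The difference itself could not change under the replicate block, another filter, no trend or a fit of the 2 groups alone. The same holds where the library left out belonged to neither group compared. In these cases only the side of the threshold could change. A library left alone in its group was assumed to vary like the other groups. Counts of members are out of 8, or 9 with no filter, and the shares over all genes under the alternatives were not computed. Higher than naive in Th1 and in Th17 were 2 each, and 1 each with a mean of at least 5 FPKM, which removes *Slamf7* from the test, and 1 in Th17 with quantile normalization. Lower in Th1 were 3, and 5 with quantile normalization. Lower in Th1 than in Th2 was 1, and 0 with no filter (0 to 2 with a library left out). Higher in Th17 than in Th2 were 3, and 1 with median scaling, quantile normalization or equal FPKM totals (1 to 3 with a library left out). Lower in Th17 than in Th2 was 1, and 2 with the replicate block, 2 with no filter, 3 with median scaling, 3 with quantile normalization and 2 with equal totals (1 to 2 with a library left out). Higher in Th1 than in Th17 were 3, and 5 with median scaling (1 to 3 with a library left out), and lower was 1 (0 to 1). Apart from the removal of *Slamf7*, the cause of these shifts was not tested.

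The values that turned direction were all short of the threshold. *Cd84* was -0.026 and -0.0015 for Th1 against Th2, -0.078 and -0.055 for Th17 against Th2 and 0.052 and 0.054 for Th1 against Th17 with median scaling and quantile normalization, and *Sh2d2a* was -0.035 and -0.033 for Th1 against Th2. *Cd48* in Th2 against naive cells was -0.088 with quantile normalization and -0.040 with equal totals, and *Sh2d1a* in Th1 against naive cells was -0.036 with quantile normalization. With a library left out, *Cd84* ranged from -0.012 to 0.20 (Th1 against Th2) and -0.14 to 0.079 (Th1 against Th17), *Cd48* in Th2 against naive from -0.25 to 0.25 and *Sh2d1a* in Th1 against naive from -0.13 to 0.36. The replicate block changed no call of a member other than those given above. Quantile normalization moved the median of all genes against naive cells to -0.13, -0.13 and -0.12 in Th1, Th2 and Th17 cells. With 2 libraries per group an SD is a rough estimate, and at 12 to 55 fragments per library the level of *Cd244* is imprecise.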
